A study of Mus musculus with 12 samples.

Results

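Kidneys of mice lacking both Fh1 and Hif-1α in the renal tubules were compared with control kidneys on 8 of the 12 arrays of the series, 4 in each group, across 23863 probes. The Fh1-/-Hif-1α-/- mice (labelled Hif1a/Fh1 KO) were homozygous for conditional alleles of both genes and carried a Ksp-Cre transgene, in which the promoter of kidney-specific cadherin drives Cre recombinase in tubular epithelium. Control littermates had conditional alleles and no Cre, or a wild-type allele together with Cre, and the labels do not say which control was which. The other 4 arrays hold Fh1-/- kidneys (labelled Fh1 KO), which entered the same fit and served to test what set the kidneys lacking both genes apart from those lacking Fh1 alone. The labels give the strain as C57BL/6 and the age as 15 weeks for every mouse, and the study's methods describe repeated backcrossing of each line to C57/BL6J. Cysts are given as the source in the labels of every array, also of the controls, although kidneys are described in the study. Whole-kidney RNA also holds vessels, glomeruli, interstitium and any tubule cells that escaped Cre, all of which keep both genes, and fewer cells of a type cannot be told apart from less RNA per cell.

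Fh1 encodes fumarate hydratase, the tricarboxylic acid cycle enzyme that turns fumarate into malate, and Hif1a encodes the oxygen-regulated subunit of a transcription factor that raises glycolysis and lowers mitochondrial pyruvate use. Both genes were removed only where Cre acted, in tubular epithelium. In the study's staining a proportion of the tubules of these kidneys still held Fh1, and which segments had lost the genes was not measured here. The nephron filters plasma in the glomerulus and recovers most sugar, amino acids, phosphate and protein in the proximal tubule. It dilutes the urine in the thick ascending limb and adjusts sodium, calcium and magnesium in the distal convoluted tubule. In the collecting duct, principal cells take up sodium and water under aldosterone and vasopressin, while intercalated cells handle acid and base. Each segment has transport proteins of its own, so that the genes of a segment can be followed in RNA of the whole organ.

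The values are log2 signals, each array shifted by at most 0.04 to a common 75th percentile. The arrays differed in ways that no label gives. Xist, a long RNA made from the silenced X chromosome of female cells, stood at 12.07 and 13.34 on replicates 2 and 3 of Fh1-/-Hif-1α-/- kidneys and at 13.28 on control replicate 4, and lay at 7.76 or below on the other 5 arrays of these groups. A list of 20 genes known to differ between male and female mouse kidney had medians 1.24 and 1.09 below the control mean on Fh1-/-Hif-1α-/- replicates 2 and 3, and 1.98 below it on control replicate 4, so results on proximal genes are also given with Xist as a covariate. The 1st percentile of signal was 7.46 to 7.54 on replicates 1 and 2 and 7.34 to 7.40 on replicates 3 and 4 of these groups. A probe whose group mean lay under 7.97, the limit of the dimmest 10% of probes, is called dim here, since without detection p-values its level and fold are uncertain.

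Fh1 itself read 13.76, 13.76, 13.80 and 14.10 in Fh1-/-Hif-1α-/- kidneys, against 14.23, 14.28, 14.25 and 14.26 in control kidneys (replicates 1 to 4). All 4 knockout values lay below all 4 control values, a fall by 0.40 on the log2 scale (standard error 0.10, adjusted p = 0.014), and a second Fh1 probe fell by 0.45. The call was lost after quantile normalization (-0.27, adjusted p = 0.054), with replicates 3 and 4 alone (-0.30, adjusted p = 0.38) and on the 7 arrays of low Xist, an alternative added after seeing the data (-0.32, adjusted p = 0.18). Those 7 arrays are Fh1-/-Hif-1α-/- replicates 1 and 4, Fh1-/- replicates 2 and 4 and control replicates 1 to 3. The Hif1a probe was instead higher, at 10.19, 11.02, 11.04 and 11.01 in Fh1-/-Hif-1α-/- kidneys, against 9.84, 10.17, 10.31 and 9.54 in control kidneys (log2 fold change 0.85, adjusted p = 0.016). Its call was lost without Fh1-/-Hif-1α-/- replicate 2 or control replicate 1, and a second Hif1a probe gave -0.19 (adjusted p = 0.65). Where these probes lie relative to the deleted exons is not given in the sources used here, and a probe outside them checks nothing of the deletion. The study checked the deletion by other means. Its Q-PCR on the RNA used for the arrays found both transcripts significantly reduced in Fh1-/-Hif-1α-/- kidneys. It also reported recombined alleles in kidney DNA, and no Hif-1α staining in the cysts of these mice. Mgarp, a mitochondrial protein whose gene Hif-1α raises, was lower than in Fh1-/- kidneys, by -2.89 (Fh1-/-Hif-1α-/- minus Fh1-/-, adjusted p = 0.00035), and higher than in control kidneys, by 1.12 (adjusted p = 0.0059).

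Calls on probes needed an adjusted p below 0.05 together with a 2-fold change. Fh1-/-Hif-1α-/- kidneys had 539 probes above control (2.26%) and 258 below it (1.08%), together 3.34%. By gene, 361 of 12344 were called higher (2.92%) and 138 lower (1.12%). At the adjusted p alone, the rule used below for single genes and lists, 1319 genes were higher (10.7%) and 1066 lower (8.64%), with a median log2 fold change of -0.03 over all genes. The rises were larger, with 55 genes at a fold of 4 or more, against 7 falls of that size. Among the 1235 genes of the brightest 10%, 288 were lower and 120 higher at the adjusted p alone, and 21 were lower and 23 higher with a 2-fold change.

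**Figure D1:**
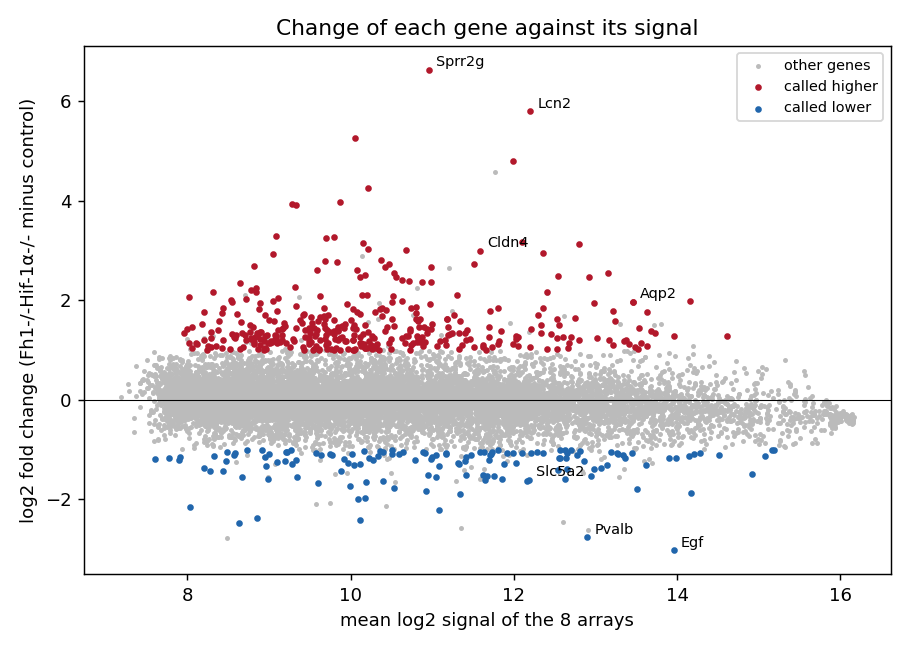
Log2 fold change (Fh1-/-Hif-1α-/- minus control, vertical) against mean log2 signal of both groups (horizontal) for 12344 genes, each by its brightest probe. Red points are the 361 genes called higher and blue points the 138 called lower (adjusted p under 0.05 and fold of 2), grey points the rest; rises reach 6.63 (Sprr2g) and falls -3.02 (Egf).

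Genes of the thick limb, distal tubule and medulla were among the 25 largest falls. Egf, the growth factor precursor that the thick ascending limb makes in large amounts, read 11.87, 12.03, 13.02 and 12.86 in Fh1-/-Hif-1α-/- kidneys, against 15.56, 15.59, 15.23 and 15.51 in control kidneys, a fall by 3.02 (standard error 0.32, adjusted p = 9.4e-05). A dimmer Egf probe fell by 0.35. Pvalb, the calcium-binding parvalbumin of the distal convoluted tubule, stood at 11.05, 10.86, 12.27 and 11.91 in Fh1-/-Hif-1α-/- kidneys and at 14.03, 14.28, 14.33 and 14.47 in control kidneys, a fall by 2.76. In both genes the knockout values of replicates 3 and 4 were the higher ones, yet all lay below every control value. Tmem207, a membrane protein found in the kidney medulla and thick limb, fell by 2.47 to a dim mean of 7.40 in Fh1-/-Hif-1α-/- kidneys, against 9.87 in control kidneys. Slc14a2, the urea transporter of the inner medulla and thin limb, read 7.61, 7.72, 10.32 and 9.99 in Fh1-/-Hif-1α-/- kidneys, against 10.73, 10.92, 11.96 and 11.71 in control kidneys. The groups did not overlap, but the levels differed between array sets in both groups, and the call (-2.42, adjusted p = 0.02) was lost without Fh1-/-Hif-1α-/- replicate 2 or control replicate 3, and its other probes gave -0.79 (adjusted p = 0.094) and 0.08 (adjusted p = 0.91).

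Further large falls fell in several families of function. Mfsd2a, a transporter of lysophospholipids that carry docosahexaenoic acid, fell by 2.21, and Ttr, the carrier of thyroid hormone and retinol-binding protein, fell by 1.87 to a mean of 13.23 in Fh1-/-Hif-1α-/- kidneys, against 15.10 in control kidneys. Corin, the protease that activates atrial natriuretic peptide, fell by 1.55 to a dim level. Chrna4, a nicotinic receptor subunit, fell by 1.51, and its second probe by 1.68. Shd, an adaptor protein, fell by 1.72, with values of 8.96 to 9.26 in Fh1-/-Hif-1α-/- kidneys, against 10.69 to 11.11 in control kidneys.

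Proximal tubule genes were lower as a group. In the pooled list of sodium-coupled, organic anion and cation transporters and of brush border and endocytic proteins, 37 of 71 measured members fell and 1 rose (Abcb1b, a drug efflux pump, whose call was lost without Fh1-/-Hif-1α-/- replicate 1 or 2 or control replicate 1 or 3), with a median of -0.68, against 8.64% of all genes falling. Slc5a2 (SGLT2), which recovers most filtered glucose, read 11.46, 11.42, 11.27 and 11.35 in Fh1-/-Hif-1α-/- kidneys, against 13.13, 13.09, 12.60 and 13.15 in control kidneys. The knockout values lay close together and below the lowest control, a fall by 1.61 (standard error 0.17, adjusted p = 9e-05), 3.06-fold. Slc34a3, a sodium phosphate cotransporter of the brush border, fell by 1.54, and Slc5a12, a lactate cotransporter, by 1.37 (a dimmer probe gave -0.46, adjusted p = 0.13). Other carriers that fell were Slc6a20b (proline and other imino acids, by 1.06) and Slc16a4 (a monocarboxylate carrier, by 1.01). Slc34a1 (-0.44) and Slc5a1 (-0.29), relatives of Slc34a3 and Slc5a2, did not pass, although Slc34a1 did without Fh1-/-Hif-1α-/- replicate 1 or control replicate 2.

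Of 23 brush border and endocytic genes 16 fell and 0 rose. Dpep1, a membrane dipeptidase, stood at 11.27, 10.86, 10.54 and 11.30 in Fh1-/-Hif-1α-/- kidneys and at 12.51, 12.42, 12.17 and 12.97 in control kidneys, a fall by 1.52, and the brush border protease meprin beta (Mep1b) fell by 1.38. The receptors that take up filtered protein were lower together: Cubn (cubilin) fell by 0.91, its partner Amn by 0.83, Lrp2 (megalin) by 0.78 and the adaptor Dab2 by 0.73. Cubn read 12.02 to 12.73 in Fh1-/-Hif-1α-/- kidneys and 13.01 to 13.50 in control kidneys, without overlap, as did 13 of the 23 genes and 9.78% of all genes in this direction.

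Among 20 organic anion and cation transporters, 6 fell, with a count of 3 without Fh1-/-Hif-1α-/- replicate 2 or 3 or control replicate 1 or 3, and of 10 without control replicate 4. Slc17a3, a urate and organic anion carrier, read 12.79, 11.66, 12.51 and 13.48 in Fh1-/-Hif-1α-/- kidneys, against 14.72, 14.53, 14.31 and 14.04 in control kidneys (log2 fold change -1.79), and Slc22a7 (Oat2) fell by 1.65. Levels of this list differed between arrays of high and low Xist. The median of the organic anion and cation list lay 1.12 and 1.30 below the control mean on Fh1-/-Hif-1α-/- replicates 2 and 3, where Xist was high, and 0.43 and 0.35 below it on replicates 1 and 4. Slc22a30 and Slco1a1, transporters that male and female mice express at different levels, had the large differences of -2.61 and -2.07 and did not pass. Slco1a1 passed without control replicate 4, with array weights (-3.15, adjusted p = 0.0088), on the arrays of low Xist (-2.69, adjusted p = 0.014) and with replicates 1 and 2 alone (-3.52, adjusted p = 0.018), but not with Xist as a covariate (-1.62, adjusted p = 0.096). Slc22a30 passed with Xist as a covariate (-2.04, adjusted p = 0.043) and with array weights (-3.69, adjusted p = 0.015). For Slc22a30 and Slco1a1 control replicate 4 lay at 12.39 and 7.59 where the other controls lay at 14.77 or above and 11.30 or above. With Xist as a covariate 41 members of the pooled list fell, and on the 7 arrays of low Xist, an alternative chosen after seeing the data, 17 did. That setting sets only Fh1-/-Hif-1α-/- replicates 1 and 4 against control replicates 1 to 3, so fewer arrays enter the comparison as well. Without Fh1-/-Hif-1α-/- replicate 3 the count was 21, and without control replicate 1 it was 22.

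Proximal metabolism changed in the same direction. Of 39 enzymes of amino acid, taurine and creatine metabolism 16 fell and 0 rose (median -0.58). Gatm, which makes the precursor of creatine, read 12.77, 12.38, 12.51 and 12.29 in Fh1-/-Hif-1α-/- kidneys, against 13.54, 13.50, 13.67 and 14.44 in control kidneys, a fall by 1.30 without overlap. Bhmt2, which methylates homocysteine, fell by 0.78, and the gluconeogenic enzyme Fbp1 and the fructokinase Khk by 0.64 and 0.61. The count of falling amino acid enzymes was 6 without control replicate 1, 8 without Fh1-/-Hif-1α-/- replicate 2, 9 without Fh1-/-Hif-1α-/- replicate 3 or control replicate 2, and 10 without control replicate 3.

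Thick ascending limb and distal tubule were lower with marked exceptions. Of 20 thick limb genes 9 fell and 1 rose, and of 21 genes of the distal convoluted and connecting tubule 11 fell and 2 rose. Umod (uromodulin), the most abundant protein of normal urine, fell by 0.67 to a mean of 15.55 in Fh1-/-Hif-1α-/- kidneys, against 16.22 in control kidneys, and a dimmer probe fell by 1.23. The claudin Cldn10 fell by 0.73, the kinase Wnk1 by 0.66 and the potassium channel Kcnj1 (ROMK) by 0.58, while Slc12a1, the furosemide-sensitive cotransporter that carries the segment's salt uptake, gave -0.27 and did not pass (adjusted p = 0.12) except without control replicate 1. Stk39 (SPAK), the kinase that activates the salt cotransporters, rose by 1.23, with 11.96 to 12.21 in Fh1-/-Hif-1α-/- kidneys and 10.71 to 10.94 in control kidneys.

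In the distal convoluted tubule, Slc12a3, the thiazide-sensitive cotransporter, read 13.69, 13.59, 14.35 and 14.20 in Fh1-/-Hif-1α-/- kidneys, against 15.09, 15.29, 14.82 and 15.06 in control kidneys, a fall by 1.11 without overlap (adjusted p = 0.0027). Klhl3, an adaptor that marks Wnk kinases for degradation, fell by 1.16. Genes of calcium and magnesium handling were lower too, with the exchanger Slc8a1 (by 1.26, with other probes at -0.20 and -0.30 that did not pass), the calcium buffer S100g (by 1.05) and the magnesium channel Trpm6 (by 0.87). The calcium channel Trpv6 rose by 0.70.

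**Figure D2:**
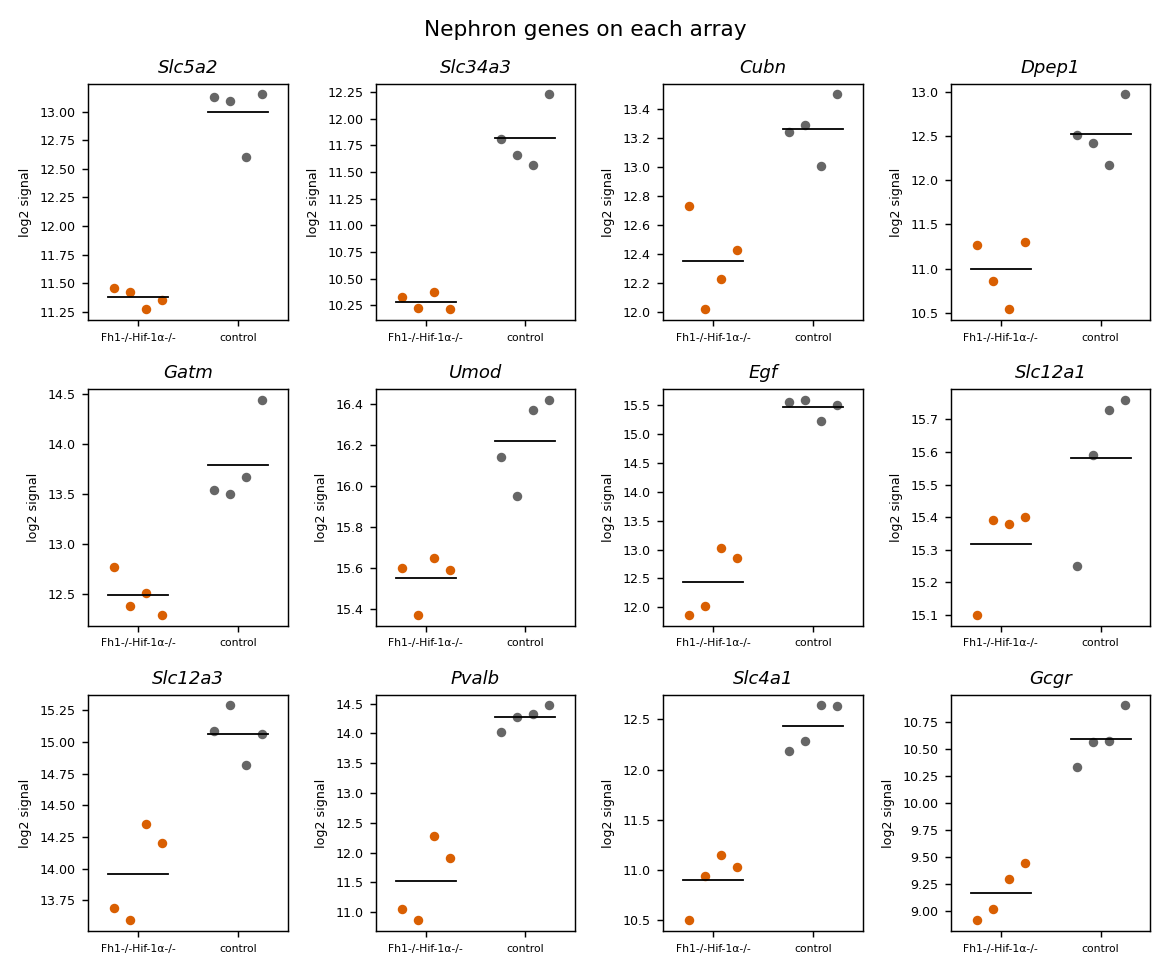
Log2 signal (vertical) of 12 nephron genes on each array, the 4 Fh1-/-Hif-1α-/- kidneys (orange) left of the 4 control kidneys (grey), with replicate numbers in order and a bar at each group mean. In 11 of the genes every Fh1-/-Hif-1α-/- value lies below every control value. Slc12a1 is the exception, with overlapping groups. Apart from Slc12a1, the genes shown are falls that had passed, so this count does not describe nephron genes at large. Over all genes, 9.78% had groups apart in this direction.

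Intercalated cell genes split. Of 16 measured, 5 fell and 2 rose. The chloride bicarbonate exchangers were lower, with Slc4a1 (the acid-secreting cell's exchanger and also the band 3 protein of red cells) at 10.50, 10.94, 11.15 and 11.03 in Fh1-/-Hif-1α-/- kidneys, against 12.19, 12.29, 12.64 and 12.63 in control kidneys, a fall by 1.53. Slc4a9 fell by 1.21, Slc26a4 (pendrin) by 0.66 and the oxoglutarate receptor Oxgr1 by 1.24. The other 2 measured red cell genes did not pass (Hba-a1 -0.89, Alas2 -0.65), and whether red cells left in the tissue had a part in the Slc4a1 value was not tested. The receptor tyrosine kinase Kit rose by 0.87, and its second probe gave 0.28 (adjusted p = 0.12). Of 10 podocyte genes 4 fell (Cdkn1c, Clic5, Nphs1 and Ptpro) and 0 rose, but the count was 0 without control replicate 1, 1 without Fh1-/-Hif-1α-/- replicate 4 or control replicate 2, and 2 without any other array but Fh1-/-Hif-1α-/- replicate 1.

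Receptors through which hormones act on the tubule were among the falls. Gcgr, the glucagon receptor, read 8.91, 9.02, 9.29 and 9.44 in Fh1-/-Hif-1α-/- kidneys, against 10.33, 10.56, 10.57 and 10.90 in control kidneys, a fall by 1.42. Pth1r, the receptor of parathyroid hormone, fell by 1.00, and Kl (klotho), the coreceptor of fibroblast growth factor 23, fell by 1.13 to a mean of 13.58 in Fh1-/-Hif-1α-/- kidneys, against 14.71 in control kidneys, though its second probe gave -0.12 (adjusted p = 0.88). Ace, which makes angiotensin II, fell by 1.33 and Fgf1 by 1.00. The vasopressin receptor Avpr2 moved the other way and is described with the principal cell genes. In all, 7 of 23 genes of this list fell and 5 rose.

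Regulators of tubule identity changed in both directions, with 9 of 31 higher and 4 lower, against 10.7% and 8.64% of all genes. Hnf4a, the nuclear receptor of proximal differentiation, fell by 0.74, a call lost without control replicate 1 or 2, and Lhx1 and Ppara by 0.88 and 0.81. Those that rose are known from developing, collecting duct or injured epithelium: Elf5, Gata3, Tfap2a, Elf3, Grhl2, Sox4 and Sox9 rose by 1.60, 1.43, 1.34, 1.28, 1.23, 1.51 and 1.44. Second probes of Sox4 (0.13, adjusted p = 0.51) and Sox9 (0.55, adjusted p = 0.073) did not pass, and neither did a further probe of Tfap2a. Grhl2, which maintains epithelial junctions, read 10.05, 10.38, 10.75 and 10.49 in Fh1-/-Hif-1α-/- kidneys, against 9.06, 9.23, 9.34 and 9.14 in control kidneys.

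Among the 107 genes called lower by 2-fold that have a promoter in the RefSeq table (GRCm38.p6, 250 bases before to 50 after the start), 12 hold the letters GTTAAT, part of the site of Hnf1, a homeodomain factor of proximal and other tubules, on either strand (11.2%), against 5.24% of 286 genes called higher by 2-fold, 5.94% of the promoters of all measured genes and 8.24% of all promoters in the table. Among the proximal list members that passed, 2 of 30 hold it (6.67%), and among the Nrf2 targets that passed, 3 of 18 (16.7%). A match is a description of the letters, not a bound site. The 4 shown here, 61 bases each around the match in capitals and 5′ to 3′ on the strand of the gene (ATTAAC is the same letters on the other strand), belong to genes of different segments and functions: Tmem207 (chr16:26526732-26526792, minus strand), Oxgr1 (chr14:120042474-120042534, minus strand), F13b, the B chain of coagulation factor XIII, which fell by 1.17 (chr1:139501629-139501689, plus strand), and Ugt3a1, a glycosyltransferase, which fell by 1.00 (chr15:9279679-9279739, plus strand).
Tmem207: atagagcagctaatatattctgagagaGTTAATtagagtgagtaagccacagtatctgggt
Oxgr1: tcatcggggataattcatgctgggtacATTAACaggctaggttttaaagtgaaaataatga
F13b: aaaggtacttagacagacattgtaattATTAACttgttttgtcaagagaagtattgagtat
Ugt3a1: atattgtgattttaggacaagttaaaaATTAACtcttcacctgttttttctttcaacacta

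Mitochondrial genes were lower by small amounts. Of 70 subunits of the respiratory chain and ATP synthase 31 fell and 0 rose, and 69 of 70 had a difference below 0, with a median of -0.33. This list was bright too, with means of 14.5 to 14.75 on the control arrays, and 288 of the 1235 brightest genes fell. Cox7a2, a subunit of cytochrome oxidase, read 12.55, 12.48, 12.40 and 12.68 in Fh1-/-Hif-1α-/- kidneys, against 13.16, 13.12, 13.11 and 12.99 in control kidneys, a fall by 0.57 without overlap, and the complex I subunits Ndufc2 and Ndufb4 fell by 0.55 and 0.46. The count depended on the scaling: quantile normalization left 11 falling and a median of -0.10. It was 17, 18 and 19 without control replicate 1, Fh1-/-Hif-1α-/- replicate 2 and Fh1-/-Hif-1α-/- replicate 3. In the tricarboxylic acid cycle 6 of 26 genes fell, against 8.64% of all genes, and Fh1, deleted by design, was among them. Mdh1 fell by 0.61 (a second probe gave -0.55, adjusted p = 0.052) and Idh3g by 0.45. That count was 3 without Fh1-/-Hif-1α-/- replicate 3 or control replicate 1. The cycle list was bright as well, with means of 13.06 to 13.26 on the control arrays, so its count stands beside the 288 of 1235 brightest genes that fell. Of 17 enzymes of cholesterol synthesis 5 fell and 0 rose, led by Cyp51, the lanosterol demethylase, at 11.67, 11.47, 12.17 and 12.03 in Fh1-/-Hif-1α-/- kidneys, against 13.45, 13.10, 13.28 and 13.84 in control kidneys (log2 fold change -1.58), with Idi1 (-1.27) and Ebp (-0.81).

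Principal cell genes were higher as a group, while the thin limb and medulla list gave 2 rises and 1 fall among 10 genes (median 0.14). Of 16 principal cell genes measured, 11 rose and 0 fell, with a median of 1.26, and 11 had groups that did not overlap, against 12.2% of all genes in this direction. Aqp2, the vasopressin-regulated water channel of the apical membrane, read 14.26, 14.77, 14.17 and 14.56 in Fh1-/-Hif-1α-/- kidneys, against 12.29, 12.20, 12.87 and 12.51 in control kidneys. That is a rise by 1.97 (standard error 0.19, adjusted p = 4.2e-05), 3.93-fold, and a second probe rose by 2.23. Aqp3, the basolateral water channel, rose by 1.21 and the vasopressin receptor Avpr2 by 1.41, although a dimmer Avpr2 probe gave -0.15 (adjusted p = 0.46). Of the 3 subunits of the epithelial sodium channel, Scnn1g and Scnn1b rose by 1.27 and 1.19 while Scnn1a gave 0.34 (adjusted p = 0.27) and passed only without Fh1-/-Hif-1α-/- replicate 4. Hsd11b2, which keeps glucocorticoids off the aldosterone receptor, rose by 1.25, Fxyd4, a regulator of the sodium pump, by 1.79, and the sialyltransferase St6gal1 by 1.38. Kcne1, a potassium channel subunit, gave -0.25 and did not pass.

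The principal cell list was also compared between kidneys lacking both genes and those lacking Fh1 alone. Its median lay 1.24, 1.44, 1.36 and 0.94 above the control mean on the 4 Fh1-/-Hif-1α-/- arrays and 0.60, 0.19, 0.36 and 0.30 above it on the 4 Fh1-/- arrays, without overlap. Against Fh1-/- kidneys 23 of all genes (0.186%) passed as higher and 10 (0.081%) as lower, and 4 of the 16 principal cell genes were among the higher: Fxyd4 (1.31, adjusted p = 0.025), Krt18 (1.18, adjusted p = 0.012), Avpr2 (1.08, adjusted p = 0.0059) and Scnn1g (0.81, adjusted p = 0.04). When each Fh1-/-Hif-1α-/- and each Fh1-/- array was left out in turn, Avpr2 passed in 8 of 8 fits and Krt18 in 7 (not without Fh1-/- replicate 2). Krt18, a keratin, is the same gene that is described with the simple epithelial keratins below. Fxyd4 and Scnn1g each passed in 2 of the 8, without Fh1-/-Hif-1α-/- replicate 4 or Fh1-/- replicate 1, and their calls were lost without any of the other arrays. Fxyd4 read 14.13, 13.92, 14.39 and 14.01 in Fh1-/-Hif-1α-/- kidneys, averaged 12.81 in Fh1-/- kidneys, and read 11.90, 12.09, 12.87 and 12.44 in control kidneys. Aqp2 was 0.90 higher than in Fh1-/- kidneys and did not pass (adjusted p = 0.084). Cldn4, a claudin of the collecting duct and thin limb, rose by 3.00 over control, with values of 12.94 to 13.20 in Fh1-/-Hif-1α-/- kidneys and 9.80 to 10.43 in control kidneys, and exceeded Fh1-/- kidneys by 1.17 (adjusted p = 0.04), a call that was lost without any 1 of these 8 arrays but Fh1-/- replicate 1.

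**Figure D3:**
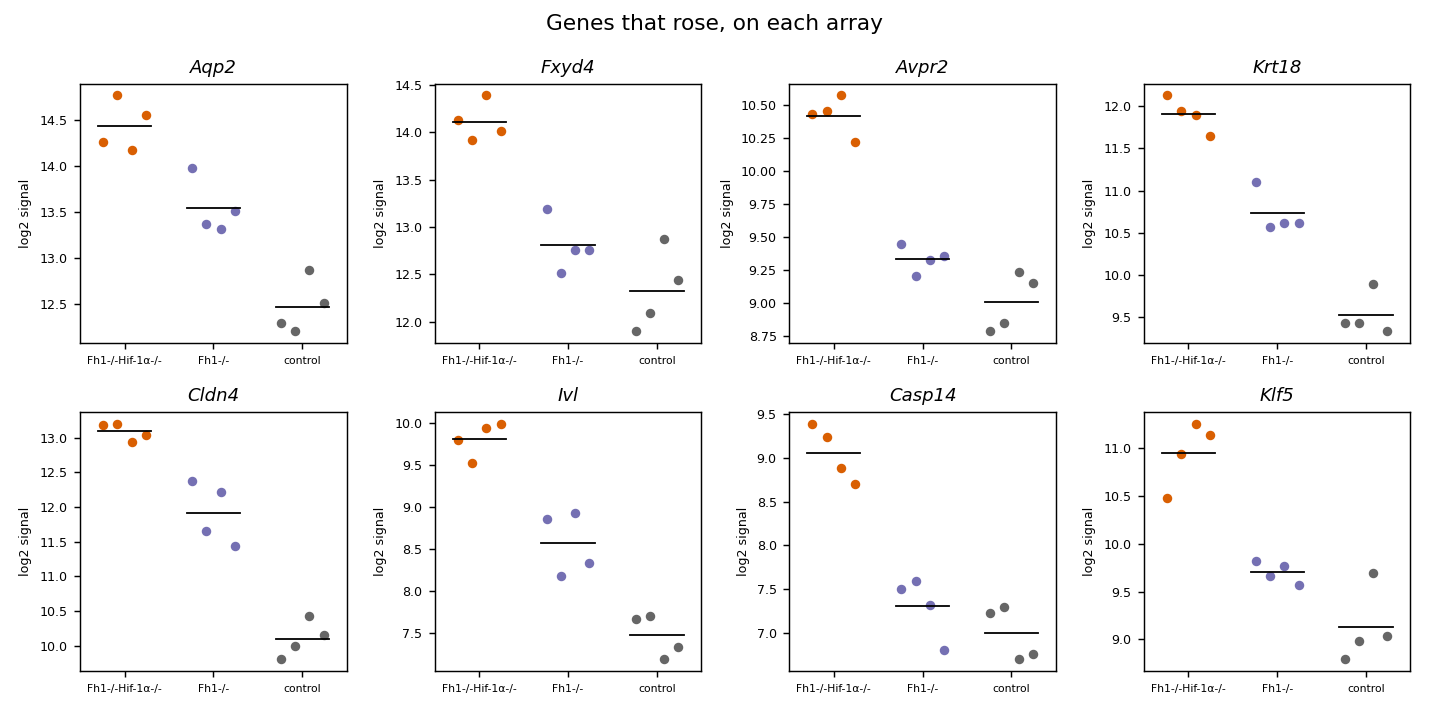
Log2 signal (vertical) of 8 genes that rose, on each array of Fh1-/-Hif-1α-/- (orange), Fh1-/- (purple) and control (grey) kidneys, with a bar at each group mean. In all 8 the Fh1-/-Hif-1α-/- values lie above every Fh1-/- and every control value. All but Aqp2 were shown after they had passed as higher than in Fh1-/- kidneys, as 0.186% of all genes did. The separation is therefore no further evidence.

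Genes of squamous and barrier epithelium, known mainly from skin, gave some of the largest rises. Of 16 keratins and desmosomal genes 8 rose and 1 fell (Krt10), and of 9 genes of the cornified envelope, the cross-linked protein shell of skin cells, 7 rose and 0 fell. Sprr2g, a small proline-rich envelope protein, read 14.44, 14.39, 13.67 and 14.56 in Fh1-/-Hif-1α-/- kidneys, against dim values of 7.92, 7.52, 7.23 and 7.87 in control kidneys (log2 fold change 6.63), and Sprr2f rose by 5.27. Members of the Sprr2 family are alike in sequence, and these probes may read more than their own gene. Ivl (involucrin) read 9.80, 9.52, 9.94 and 9.99 in Fh1-/-Hif-1α-/- kidneys, against dim values of 7.66, 7.70, 7.18 and 7.33 in control kidneys (2.34), and the caspase of keratinizing skin, Casp14, rose by 2.06 from a dim control level. Both exceeded Fh1-/- kidneys, by 1.24 (adjusted p = 0.025) and 1.75 (adjusted p = 0.0059). With each array of these groups left out in turn, Casp14 passed in 8 of 8 fits and Ivl in 4, not without Fh1-/-Hif-1α-/- replicate 1 or 3 or Fh1-/- replicate 2 or 4. Cdsn (corneodesmosin), a desmosomal protein of skin outside both lists, rose by 2.93.

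Simple epithelial keratins, the intermediate filaments of ducts, rose with them. Krt18 read 12.13, 11.95, 11.90 and 11.65 in Fh1-/-Hif-1α-/- kidneys, against 9.43, 9.43, 9.89 and 9.33 in control kidneys, a rise by 2.38, and Krt19, Krt23 and Krt7 rose by 2.20, 1.84 and 1.27. Krt23 and Krt7 exceeded Fh1-/- kidneys by 1.42 (adjusted p = 0.021) and 0.79 (adjusted p = 0.026). Without Fh1-/-Hif-1α-/- replicate 1, 2 or 3 or Fh1-/- replicate 2 or 4 both calls were lost, and that of Krt23 also without Fh1-/- replicate 3. The transcription factor Klf5, active in proliferating epithelium, rose by 1.83 and exceeded Fh1-/- kidneys by 1.25 (adjusted p = 0.034), a call kept only without Fh1-/-Hif-1α-/- replicate 1 when an array of either group was left out. It was chosen after its values were seen.

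The letters TGANTCA, the site of AP-1 (a family of dimeric transcription factors), stood in the promoters of 38 of 286 genes called higher by 2-fold (13.3%), against 5.61% of 107 called lower, 6.72% of the promoters of all measured genes and 8.97% of all promoters in the table. Of the 5 cornified envelope genes that passed and have an entry, 4 hold it. Among Nrf2 targets that passed, 4 of 18 hold it (22.2%). Counts were 0 of 6 keratin and desmosome genes, 1 of 10 principal cell genes and 1 of 18 stress response genes that passed. The core of the antioxidant response element, TGACNNNGC, stood in 3 of the same 5 cornified envelope genes, against 16.5% of the promoters of all measured genes. Here too a match describes the letters, not a bound site. Fos and Junb themselves rose by 1.60 and 1.38 (a second Junb probe gave 0.06, adjusted p = 0.82), with Fos at 9.25 on control replicate 4, above the other controls, and the Fos call was lost without control replicate 1 or 2. They belong to a list of 11 genes that tissue handling raises, of which 4 rose and 0 fell, and the part of handling was not tested. The 5 stretches shown, of 61 bases, place the match in capitals within genes that exceed control by 2.34 (Ivl, chr3:92573818-92573878, minus strand), 2.67 (Sprr1a, chr3:92485964-92486024, minus strand), 5.27 (Sprr2f, chr3:92364963-92365023, plus strand), 3.00 (Cldn4, chr5:134947059-134947119, minus strand) and 2.36 (Rab15, a vesicle traffic protein, chr12:76818564-76818624, minus strand).
Ivl: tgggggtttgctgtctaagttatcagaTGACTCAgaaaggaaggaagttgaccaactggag
Sprr1a: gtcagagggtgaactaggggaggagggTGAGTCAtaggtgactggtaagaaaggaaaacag
Sprr2f: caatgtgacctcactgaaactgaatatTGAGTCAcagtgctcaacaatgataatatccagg
Cldn4: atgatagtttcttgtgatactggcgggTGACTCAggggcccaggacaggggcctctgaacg
Rab15: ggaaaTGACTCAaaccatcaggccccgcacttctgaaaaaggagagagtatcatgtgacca

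The integrated stress response, in which the factor ATF4 raises amino acid uptake, amino acid synthesis and stress genes, was higher across most of its list. Of 30 measured genes 19 rose and 1 fell (Shmt2, by 1.07, its second probe at -0.52 with an adjusted p of 0.054), with a median of 0.93. Trib3, a pseudokinase that restrains this response, read 12.46, 13.07, 11.88 and 11.96 in Fh1-/-Hif-1α-/- kidneys, against 8.30, 8.17, 7.66 and 8.24 in control kidneys, a rise by 4.25 (standard error 0.24, adjusted p = 1.4e-06), while its second probe rose by 1.85. Atf5, a transcription factor of this response, rose by 3.17 and Ddit3 (CHOP) by 2.67. Asns, asparagine synthetase, read 12.56, 13.20, 12.85 and 12.89 in Fh1-/-Hif-1α-/- kidneys, against 9.84, 9.21, 9.76 and 11.75 in control kidneys (2.74), with control replicate 4 well above the other 3. The mitochondrial folate enzymes Aldh1l2 and Mthfd2 rose by 2.79 and 2.47, and Phgdh, the entry to serine synthesis, by 1.23. Slc7a11, the cystine importer, rose by 3.30 from a dim level, while a further Slc7a11 probe went the other way and did not pass. Chac1, which degrades glutathione, rose by 2.77 and the stress protein Nupr1 by 2.55. Atf4 itself gave 0.34 and did not pass (adjusted p = 0.066), but passed with the values as deposited (0.37, adjusted p = 0.043), with array weights (0.38, adjusted p = 0.018) and after quantile normalization (0.44, adjusted p = 0.015). Of 18 aminoacyl-tRNA synthetases, several of which ATF4 is known to raise, 6 rose and 0 fell, led by Vars (0.78) and Wars (0.70).

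TGATGNAA, the composite element of ATF4 with C/EBP proteins, was found on either strand in the promoters of 6 of the 18 genes of this list that passed and have an entry (33.3%), in 4.2% of the genes called higher by 2-fold, in 2.95% of the promoters of all measured genes and in 4.51% of all promoters in the table. The list was drawn from genes known to answer to ATF4, so the share describes what such lists hold. The matches, in capitals in stretches of 61 bases, lie at Trib3 (chr2:152344012-152344072, minus strand), Asns (chr6:7693198-7693258, minus strand), Chac1 (chr2:119351023-119351083, plus strand), Nupr1 (chr7:126625546-126625606, minus strand) and Atf3 (chr1:191183409-191183469, minus strand), and in all but Asns they read as the reverse complement of the letters given.
Trib3: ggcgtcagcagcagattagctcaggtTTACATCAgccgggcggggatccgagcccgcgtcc
Asns: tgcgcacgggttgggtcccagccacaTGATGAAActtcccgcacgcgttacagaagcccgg
Chac1: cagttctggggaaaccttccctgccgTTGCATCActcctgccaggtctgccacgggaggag
Nupr1: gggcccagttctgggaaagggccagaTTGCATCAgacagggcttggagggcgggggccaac
Atf3: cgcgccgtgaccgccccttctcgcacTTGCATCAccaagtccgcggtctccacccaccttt

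Genes of growth arrest and of division rose side by side. Of 24 p53 targets 12 rose and 0 fell. Cdkn1a (p21), which stops the cell cycle, read 11.82, 12.35, 12.30 and 12.28 in Fh1-/-Hif-1α-/- kidneys, against 8.98, 9.12, 9.03 and 9.55 in control kidneys, a rise by 3.02, and Phlda3, an inhibitor of Akt, rose by 2.50. Of 31 replication and mitosis genes 18 rose and 0 fell, with a median of 0.50, among them Prc1, a protein of the mitotic spindle midzone (1.44), Cdk1 (0.91) and Mcm5, part of the replicative helicase (0.87). These rises were smaller than that of Cdkn1a, and Cdk1 was dim in control kidneys.

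Injury and shape genes rose as well. Lcn2, which injured tubules secrete into urine, read 15.03, 15.00, 15.25 and 15.13 in Fh1-/-Hif-1α-/- kidneys, against 9.35, 8.76, 8.96 and 10.11 in control kidneys, a rise by 5.80. Havcr1 (KIM-1), a receptor that injured proximal cells raise, stood at 11.90, 12.34, 11.01 and 12.06 in Fh1-/-Hif-1α-/- kidneys and at 8.57, 8.31, 11.62 and 9.21 in control kidneys. Control replicate 3 lay within the knockout range, and the Havcr1 call (2.40, adjusted p = 0.018) was lost without Fh1-/-Hif-1α-/- replicate 2 or control replicate 1 or 2. In all, 11 of 19 injury genes rose and 0 fell. Of 39 actin and microtubule genes 16 rose and 2 fell, with Arpc1b, of the complex that branches actin, up by 1.40 and the tropomyosin Tpm1 by 1.06, and of 21 S100 and annexin genes 10 rose and 1 fell (S100g, named above). S100a6 read 12.83 to 13.39 in Fh1-/-Hif-1α-/- kidneys and 11.24 to 11.81 in control kidneys. Of the 8 measured ligands and receptors of the EGF family, 3 rose while Egf fell: Btc (betacellulin) rose by 1.49, Nrg1 by 0.87 (its second probe gave 0.31 and did not pass) and Hbegf by 0.74.

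Macrophage and matrix genes were higher while lymphocyte and neutrophil genes gave no call. Of 19 macrophage markers 15 rose and 0 fell, with medians 0.81 to 1.00 above the control mean on the Fh1-/-Hif-1α-/- arrays. Fcer1g, the only marker with a difference below 0, gave a large -2.78 that did not pass (adjusted p = 0.072). Mrc1, the mannose receptor of resident macrophages, read 10.46, 10.85, 10.83 and 10.22 in Fh1-/-Hif-1α-/- kidneys, against 8.67, 8.98, 8.75 and 8.60 in control kidneys (1.84), and Cd163 rose by 2.16 from a dim level. Lgals3 (galectin 3), which tubule cells also make, rose by 1.98. The macrophage growth factor Csf1 and the chemokines Ccl8 and Ccl12 rose by 1.23, 2.26 and 1.45. Of 10 lymphocyte and 4 neutrophil markers 0 passed. Of 27 fibroblast and matrix genes 16 rose and 1 fell. Col1a1 stood at 10.06, 9.88, 10.31 and 9.37 in Fh1-/-Hif-1α-/- kidneys and at 8.17, 8.64, 8.58 and 8.43 in control kidneys (1.45), Col3a1 rose by 1.35, and Plaur (the urokinase receptor) and the protease Mmp2 by 1.55 and 1.25. On the 7 arrays of low Xist 7 of the 27 matrix genes rose.

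The median of the fat cell list lay above the control mean on every Fh1-/-Hif-1α-/- array, by unequal amounts. Adipoq (adiponectin), which fat cells secrete, read 11.10, 10.73, 12.20 and 11.68 in Fh1-/-Hif-1α-/- kidneys, against 8.04, 9.45, 7.78 and 7.36 in control kidneys (3.27, adjusted p = 0.012), and the lipid droplet protein Cidec rose by 2.17, as did its relative Cidea, outside the list, by 3.25. Ucp1, the uncoupling protein of brown fat, stood at 13.58 on Fh1-/-Hif-1α-/- replicate 3 and at 8.91 or below on the other 3, against 8.07 or below in control kidneys, and did not pass. Of 8 fat cell genes 2 rose and 1 fell (Lpl, a call lost without Fh1-/-Hif-1α-/- replicate 1 or 2 or control replicate 3 or 4), with list medians 0.52, 1.02, 2.02 and 0.87 above the control mean on the 4 Fh1-/-Hif-1α-/- arrays. Whether fat around the kidney had a part in these values was not tested.

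**Figure D4:**
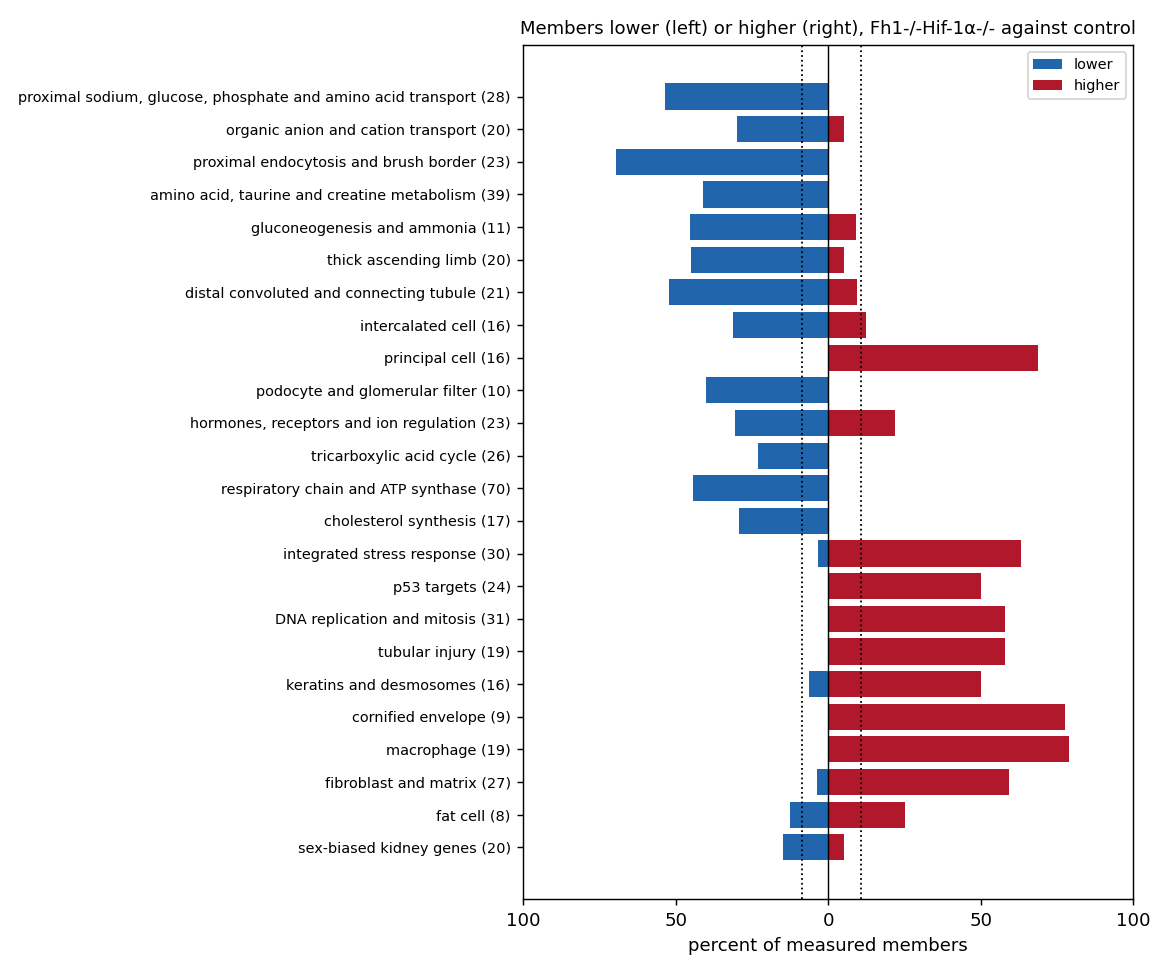
Share of the measured members of 24 gene lists that were lower (blue, to the left) or higher (red, to the right) in Fh1-/-Hif-1α-/- than in control kidneys at an adjusted p under 0.05 (horizontal, percent of members, with the number of members beside each name). The dotted lines mark the shares over all genes, 8.64% lower and 10.7% higher; segment and mitochondrial lists extend to the left, and principal cell, stress and matrix lists to the right.

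**Figure D5:**
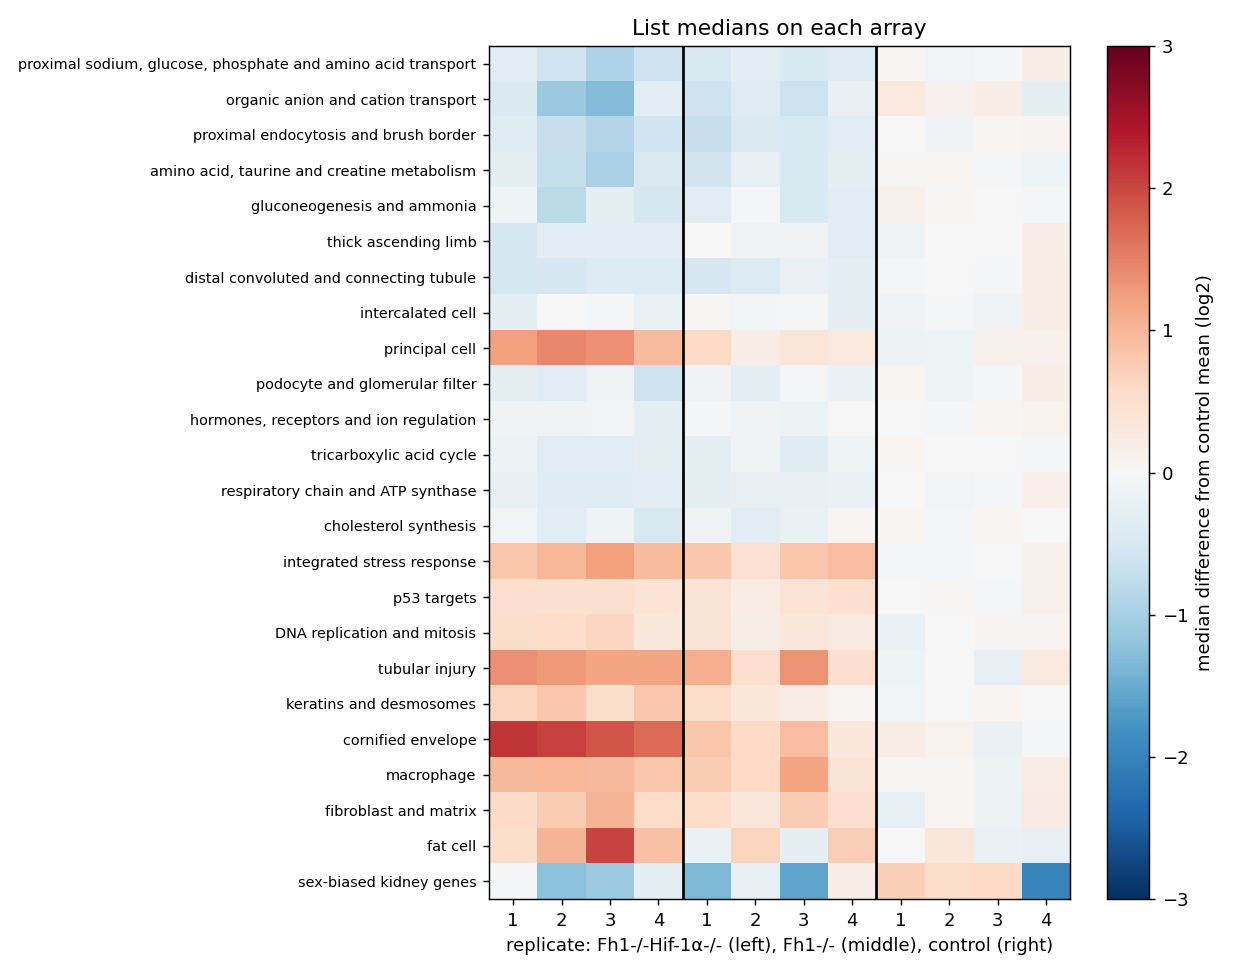
Median difference of each of 24 lists from the control mean (log2, colour scale) on each of the 12 arrays, Fh1-/-Hif-1α-/- on the left, then Fh1-/- and control, replicates 1 to 4 in order. The principal cell row is at 0.94 to 1.44 on the Fh1-/-Hif-1α-/- arrays and at 0.19 to 0.60 on the Fh1-/- arrays, and the organic anion and cation row is lowest on Fh1-/-Hif-1α-/- replicates 2 and 3.

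Enzymes of retinoid and drug metabolism moved in both directions. Of 19 genes of vitamin D, vitamin A and steroid metabolism 4 rose and 2 fell, and of 23 cytochromes P450 5 rose and 2 fell (median -0.09). Of 15 glucuronosyl and sulfo transferases 4 rose and 2 fell (median 0.08). Over all genes 10.7% rose and 8.64% fell, and the falls in these small lists were near that share. Aldh1a1, which makes retinoic acid from retinal, read 11.93, 11.90, 11.74 and 11.69 in Fh1-/-Hif-1α-/- kidneys, against 9.35, 9.49, 8.81 and 9.38 in control kidneys, a rise by 2.55, and its relative Aldh1a7 rose by 1.96. Adh7, which oxidises retinol and other alcohols, rose by 3.97 from a dim level and exceeded Fh1-/- kidneys by 1.69 (adjusted p = 0.00095). Ugt2b35, a glucuronosyltransferase, rose by 3.93 from a dim level. Cyp4a14, a fatty acid hydroxylase, read 14.73, 14.86, 13.96 and 13.91 in Fh1-/-Hif-1α-/- kidneys, against 10.10, 10.53, 9.85 and 14.43 in control kidneys. Control replicate 4, the control of high Xist, lay within the knockout range, and the call (3.13, adjusted p = 0.02) was lost without Fh1-/-Hif-1α-/- replicate 2 or control replicate 1, 2 or 3.

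For Nrf2 and Hif targets only counts are given, beside the shares over all genes. Of 33 Nrf2 targets 19 rose and 2 fell. Of 30 Hif targets 6 rose and 2 fell over control, with a median of -0.05, and 7 were lower than in Fh1-/- kidneys. Over all genes 10.7% were higher and 8.64% lower than in control kidneys, and 0.081% were lower than in Fh1-/- kidneys.

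The conditional alleles carry their own stretches of chromosome, and the 50 measured genes on each side of Fh1 on chromosome 1 and of Hif1a on chromosome 12 were counted. Of the 100 around Fh1, 14 were higher and 9 lower (23%), and of the 100 around Hif1a, 12 were higher and 10 lower (22%), near the 19.3% of all genes that passed. Within 25 genes on each side the shares were 18% and 30%. At a fold of 2, 4 were called within the wider window of each. Rab15, a neighbour of Hif1a, also differed from Fh1-/- kidneys (1.16, adjusted p = 0.04), a call lost without Fh1-/-Hif-1α-/- replicate 1, 2 or 3 or Fh1-/- replicate 2, 3 or 4.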

How the data were processed

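RNA from 12 mouse kidney samples was hybridised to Illumina MouseWG-6 BeadChips by the authors, who read the arrays with GenomeStudio V2010.1 and normalised them in GeneSpring GX 11.0.2 by a shift to the 75th percentile. The authors deposited log2 values, which were used here. A second deposited table of 12 signal and 12 detection p-value columns could not be tied to samples, so its 24 columns were not used, and the number of arrays alone limits the precision. All arrays were brought to the same 75th percentile, and limma 3.58.1 (R 4.3.3) was fitted to all 12 arrays with 3 groups and an intensity trend, with Benjamini-Hochberg adjustment over 23863 probes. A gene was taken from its probe of highest mean signal (19906 probes had 1 symbol, 9 several, 3948 none). The steps were tested on simulated data. The labels do not say that replicates were separate animals, so p-values measure the spread between these samples.

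Genes were named by a rule: the 25 largest rises and falls that passed with groups apart, up to 6 passing members of each of 54 lists with the largest change, the 3 brightest members of lists with few calls, and Fh1, Hif1a and Xist. Other named genes were chosen after their values were seen. Members and lists were chosen with earlier results of these data known. Alternatives covered scaling, weights, blocks, Xist, thresholds, subsets of arrays and each array left out in turn. Promoter sequences came from RefSeq (GRCm38.p6).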

Additional observations from a re-analysis of the deposited data

Results flagged for a closer look

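In groups of 4 arrays, a single array stood apart from the other 3 for several genes, by a gap that chance gives in about 1 of 20 groups. Many genes are named here, so several such gaps come by chance. Cdkn1a read 11.82 on Fh1-/-Hif-1α-/- replicate 1, with the others at 12.28 to 12.35. Chac1 read 8.95 on control replicate 4, with the others at 8.21 to 8.33. Cyp4a14 read 14.43 on control replicate 4, with the others at 9.85 to 10.53. Elf5 read 9.55 on control replicate 3, with the others at 8.16 to 8.37. F13b read 14.25 on control replicate 3, with the others at 14.54 to 14.57. Fh1 read 14.1 on Fh1-/-Hif-1α-/- replicate 4, with the others at 13.76 to 13.8. Hif1a read 10.19 on Fh1-/-Hif-1α-/- replicate 1, with the others at 11.01 to 11.04. Kcnj1 read 12.72 on Fh1-/-Hif-1α-/- replicate 4, with the others at 13.11 to 13.16. Kit read 11.28 on Fh1-/-Hif-1α-/- replicate 3, with the others at 10.62 to 10.73. Krt10 read 12.02 on control replicate 3, with the others at 11.9 to 11.92. Mfsd2a read 11.32 on control replicate 2, with the others at 12.38 to 12.56. Slc12a1 read 15.1 on Fh1-/-Hif-1α-/- replicate 1, with the others at 15.38 to 15.4. Slc22a30 read 12.39 on control replicate 4, with the others at 14.77 to 14.84. Slc5a2 read 12.6 on control replicate 3, with the others at 13.09 to 13.15. Slco1a1 read 7.4 on Fh1-/-Hif-1α-/- replicate 2, with the others at 9.09 to 9.2. Trpv6 read 8.86 on Fh1-/-Hif-1α-/- replicate 2, with the others at 9.02 to 9.05. Trpv6 read 8.67 on control replicate 4, with the others at 8.1 to 8.18. Ucp1 read 13.58 on Fh1-/-Hif-1α-/- replicate 3, with the others at 7.95 to 8.91. Ugt2b35 read 7.11 on control replicate 2, with the others at 7.38 to 7.4. 

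Log2 differences of Fh1-/-Hif-1α-/- minus Fh1-/- kidneys that passed for genes named here were Adh7 1.69 (adjusted p = 0.00095), Avpr2 1.08 (adjusted p = 0.0059), Casp14 1.75 (adjusted p = 0.0059), Cldn4 1.17 (adjusted p = 0.04), Fxyd4 1.31 (adjusted p = 0.025), Ivl 1.24 (adjusted p = 0.025), Klf5 1.25 (adjusted p = 0.034), Krt18 1.18 (adjusted p = 0.012), Krt23 1.42 (adjusted p = 0.021), Krt7 0.79 (adjusted p = 0.026), Mgarp -2.89 (adjusted p = 0.00035), Rab15 1.16 (adjusted p = 0.04) and Scnn1g 0.81 (adjusted p = 0.04). When each Fh1-/-Hif-1α-/- and Fh1-/- array was left out in turn, Adh7, Avpr2, Casp14 and Mgarp passed in 8 of 8 fits, Krt18 in 7, Ivl in 4, Krt7 in 3, Fxyd4, Krt23, Rab15 and Scnn1g in 2, and Cldn4 and Klf5 in 1. The fits that left out Fh1-/- arrays were added after seeing the data.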

How the results depend on the processing

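Main counts were 539 probes higher and 258 lower. With array weights 471 were lower, with an adjusted p under 0.01 154 were lower, and with no fold minimum 2057 were higher and 1902 lower. Replicates 1 and 2 alone gave 589 lower, and replicates 3 and 4 alone 176 higher and 66 lower. Proximal genes lower (37) numbered 23 by the unmoderated test, 19 at 0.01, 21 and 6 in the array subsets, 17 on arrays of low Xist and 21 to 42 with an array left out. Respiratory chain genes lower (31) numbered 11 after quantile normalization, 10 at 0.01, 7 and 0 in the subsets, 1 on arrays of low Xist and 17 to 33 with an array left out. Thick limb and distal genes lower (19) numbered 5 with replicates 3 and 4 and 12 on arrays of low Xist. With replicates 3 and 4 alone, rises numbered 4 (principal cell), 9 (stress response), 7 (keratin and cornified), 3 (macrophage) and 0 (matrix), and matrix rises were 10 at 0.01 and 7 on arrays of low Xist. The cause was not tested, beyond the fewer arrays or stricter threshold that some settings bring. Second probes reversed Avpr2 (-0.15) and Hif1a (-0.19), and a further Slc7a11 probe (-0.13) also went the other way and did not pass. Further probes did not pass for Tfap2a (0.06), Vars (0.18), Wars (0.40), Wnk1 (-1.02) and Kcnj1 (-0.47). Alas2 gave 0.4 with replicates 1 and 2, and Xist gave -0.16 with replicates 3 and 4 and -0.03 on arrays of low Xist. With the replicate number as a block, 527 probes were higher and 247 lower; same-numbered knockout and control arrays correlated at 0.43, 0.07, 0.16 and -0.02, so the numbers were not taken to pair samples.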
